A study of Mus musculus with 8 samples.

Results

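Regions of open chromatin called as peaks in both EpCAM-high lists of liver cells, and in none of the 3 other lists, were collected from 5 deposited ATAC-seq peak lists. ATAC-seq uses a transposase that cuts and tags accessible DNA, and a peak marks a stretch with more cuts than its surroundings. All peaks of the 5 lists were merged wherever they overlapped by 1 bp or more, which gave 138775 union regions. A union region was taken as a member when it held a peak of EpCAM-high CK19 and a peak of EpCAM-high Sox9 and no peak of the Tumor Sox9, Prog-like CK19 or Prog-like Sox9 lists. This left 12938 members, or 9.32% of all union regions. The members were chosen by the authors' peak calls, so where peaks are present or missing is given below as a description without a test.

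The cells came from livers or visible lesions of mice in which genes of the retinoblastoma (Rb) family are deleted, and were sorted by flow cytometry for YFP, which marks cells in which Cre recombinase had acted on floxed alleles. The labels name 8 samples in 5 groups: EpCAM-high CK19 (2 samples), EpCAM-high Sox9 (1), Thy1+ CK19 (2), Thy1+ Sox9 (1) and Epcam- (2). All groups carry the recombined alleles, and no group with intact Rb family genes is among them; strain, age, the promoter that drives Cre and the number of animals per sample are not stated in the labels. The EpCAM-high lists share their names with sample groups, whereas the names Prog-like and Tumor appear in no label, and these lists are tied to no sorted group here. With 1 list per condition, replicate error cannot be given and conditions are not tested against each other. Read depth is unknown and the lists differ in length, with 56932 and 59454 peaks for EpCAM-high CK19 and Sox9, 71375 and 67855 for Prog-like CK19 and Sox9, and 39644 for Tumor, and a missing peak does not show that the DNA was closed. Ranges in brackets after a share are its 95% Clopper-Pearson (exact) interval, which covers counting error alone; neighbouring regions and genes are not independent. In sorted bulk cells, fewer cells with an open region and a less open region per cell cannot be told apart.

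EpCAM is an adhesion protein of simple epithelia, and in adult liver it marks cholangiocytes, the cells that line bile ducts, and liver progenitor cells rather than hepatocytes. Open regions away from gene starts are mostly enhancers, which transcription factors bind to switch on genes of a cell type. Open gene starts, by contrast, are shared by many cell types, above all where the promoter is rich in CpG dinucleotides.

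Some of the promoters that lay inside members belong to bile duct and epithelial genes. The whole 300 bp RefSeq promoter window (250 bp before to 50 bp after a transcript start) lay inside a member for 252 protein-coding genes. A window was known for 17492 protein-coding genes. The gene lists used below hold 326 genes, and 12 of the 252 belong to them. These 12 are Amotl1, Aqp1, Cftr, Cldn7, Crb3, Erbb2, Jag2, Krt23, Krt7, Nrxn3, Wnt2 and Wnt9b. What the rest of the 252 encode was not examined. The 250 bp before the start are shown for the 6 of these whose member ranked highest in both lists, to let their base composition be seen. They read 5′ to 3′ along the gene's strand in build GRCm38.p6 (the same coordinates as mm10), with CpG dinucleotides in capitals.
Cftr, chr6:18170437-18170686, plus strand: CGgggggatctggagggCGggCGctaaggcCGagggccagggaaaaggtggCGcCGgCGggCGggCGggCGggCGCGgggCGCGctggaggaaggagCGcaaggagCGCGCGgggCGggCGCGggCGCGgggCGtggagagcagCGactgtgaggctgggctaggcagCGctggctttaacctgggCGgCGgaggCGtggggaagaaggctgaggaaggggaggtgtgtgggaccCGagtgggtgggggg
Crb3, chr17:57061981-57062230, plus strand: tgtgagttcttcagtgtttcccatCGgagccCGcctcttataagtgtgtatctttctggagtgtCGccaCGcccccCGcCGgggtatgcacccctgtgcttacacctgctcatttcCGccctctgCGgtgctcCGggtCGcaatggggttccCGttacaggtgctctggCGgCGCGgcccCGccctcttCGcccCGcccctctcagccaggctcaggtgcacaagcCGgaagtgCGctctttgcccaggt
Cldn7, chr11:69965171-69965420, plus strand: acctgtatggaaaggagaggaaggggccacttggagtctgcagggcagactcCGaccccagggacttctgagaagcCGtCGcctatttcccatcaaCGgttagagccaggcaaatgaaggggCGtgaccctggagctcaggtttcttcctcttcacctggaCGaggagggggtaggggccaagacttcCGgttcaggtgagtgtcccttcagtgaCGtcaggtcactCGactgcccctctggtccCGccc
Wnt9b, chr11:103749822-103750071, minus strand: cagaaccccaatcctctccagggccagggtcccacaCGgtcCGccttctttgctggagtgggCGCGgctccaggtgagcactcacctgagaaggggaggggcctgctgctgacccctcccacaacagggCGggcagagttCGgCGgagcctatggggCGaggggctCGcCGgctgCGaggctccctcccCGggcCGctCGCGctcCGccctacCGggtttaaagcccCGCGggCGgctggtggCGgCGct
Amotl1, chr9:14615001-14615250, minus strand: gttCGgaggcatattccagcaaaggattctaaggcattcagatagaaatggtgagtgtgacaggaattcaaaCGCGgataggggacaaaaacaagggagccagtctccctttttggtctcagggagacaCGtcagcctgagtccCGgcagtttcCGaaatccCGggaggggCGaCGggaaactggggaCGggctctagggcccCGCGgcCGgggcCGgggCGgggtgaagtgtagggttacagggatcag
Aqp1, chr6:55336049-55336298, plus strand: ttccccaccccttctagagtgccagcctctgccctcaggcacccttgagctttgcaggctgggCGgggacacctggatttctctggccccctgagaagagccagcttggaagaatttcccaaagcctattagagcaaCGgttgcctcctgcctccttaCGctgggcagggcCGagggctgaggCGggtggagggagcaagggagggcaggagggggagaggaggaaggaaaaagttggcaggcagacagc

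Cftr encodes the chloride channel of bile duct epithelium, Crb3 a polarity protein of the apical membrane, Cldn7 a tight junction protein, Wnt9b a secreted Wnt ligand, Amotl1 a junction protein that binds YAP, and Aqp1 a water channel. The printed Cftr stretch holds 30 CpG dinucleotides and that of Aqp1 holds 5. The stretch of Wnt9b holds 22, that of Crb3 19, that of Amotl1 15 and that of Cldn7 10. Over the whole window the ratio of observed to expected CpG was 1.01 at Cftr and 0.278 at Aqp1. CpG-rich and CpG-poor promoters thus both occur among the members.

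Members made up close to as large a share of the regions common to both EpCAM-high lists as did regions open everywhere. Of 38828 union regions with a peak in both EpCAM-high lists, 12938 were members (33.3%, 32.9 to 33.8), and 13529 also held peaks of all 3 other lists (34.8%, 34.4 to 35.3). A further 6389 (16.5%, 16.1 to 16.8) were shared with Tumor Sox9 and neither Prog-like list, and 3655 (9.41%, 9.12 to 9.71) with both Prog-like lists and not Tumor. The remaining combinations held 983 regions or fewer each. Of the deposited EpCAM-high peaks, 12954 of 56932 in the CK19 list (22.8%) and 13246 of 59454 in the Sox9 list (22.3%) lay in members. A single EpCAM-high list and no other list held 13857 (CK19) and 12868 (Sox9) regions, which are not members.

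**Figure D1:**
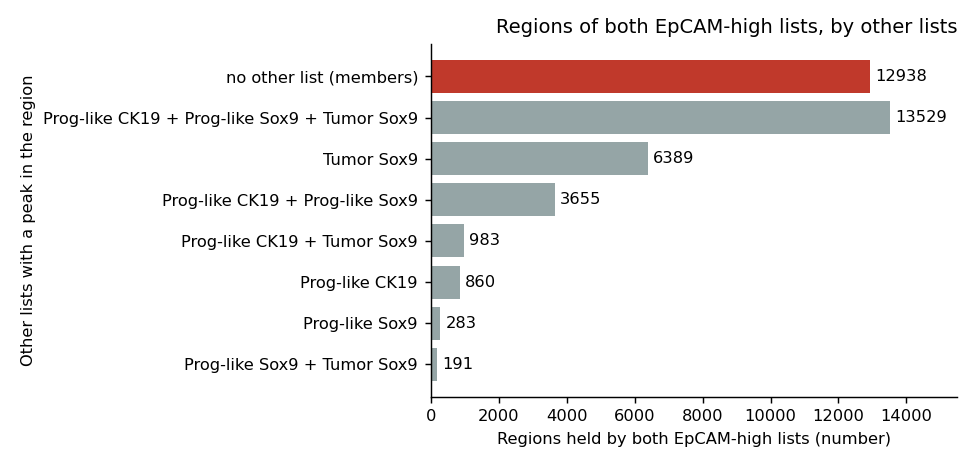
Number of union regions held by both EpCAM-high lists (x axis), by which of the other 3 lists also had a peak there (y axis). The 12938 members (red) are nearly as many as the 13529 regions shared with all other lists.

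The peak caller's threshold sets the edge of the set. In members, the lower of the 2 EpCAM-high −log10 q values had a median of 10.1 and a minimum of 1.34, and it was below 2 in 172 members (1.33%). Just outside were 7532 regions kept out by a peak of 1 other list alone. The −log10 q of that other peak had a median of 10.2 and a minimum of 1.33, and it was below 2 in 71 regions (0.943%). These −log10 q values, like the folds below, are the authors' and are read within their own list.

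Members were mostly single-peak sites with their summits close together in both lists. Their width had a median of 489 bp, with quartiles of 358 and 662 bp and a range of 180 to 2156 bp. All other union regions had a median of 430 bp. They include regions of EpCAM-high CK19 alone or EpCAM-high Sox9 alone, with medians of 259 and 212 bp. In 12619 members (97.5%) each list had exactly 1 peak. The summits of the CK19 and Sox9 peaks lay a median of 36 bp apart, and 10878 members (84.1%) had them within 100 bp. The peak was the wider in the CK19 list in 9028 members (69.8%), with median widths of 435 bp in CK19 and 346 bp in Sox9, where the whole lists had medians of 439 and 349 bp.

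In strength the members sat in the middle of each EpCAM-high list. Ranked by −log10 q from the strongest, the median member stood at 46.3% of the CK19 list and 48.9% of the Sox9 list, with median −log10 q values of 16.3 and 13.0 and median folds of 6.55 and 7.23. Regions of both EpCAM-high lists and Tumor stood higher, at 36.0% and 34.3%, and were wider, with a median of 697 bp. Regions of all 5 lists stood at 22.9% and 20.9% with a median width of 1125 bp. Width is that of the merged region, which peaks of more lists can only widen, so the class widths are not like for like. Among members, those within 1000 bp of a gene end were wider (median 556.5 bp) and ranked lower (52.1% and 56.9%) than those between genes (490 bp, 44.8% and 47.4%).

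Most members lay away from gene ends. Of 12932 members on the main chromosomes, 994 were at a gene end, that is within 1000 bp of the start or end of a protein-coding gene (7.69%, 7.23 to 8.16), 5442 were elsewhere in a gene body (42.1%, 41.2 to 42.9) and 6496 were between genes (50.2%, 49.4 to 51.1). Among all other union regions 12.4% (12.2 to 12.6) were at a gene end, 42.0% in a gene body and 45.6% (45.4 to 45.9) between genes. Regions of both Prog-like lists alone were at a gene end in 5.11% (4.89 to 5.35) and between genes in 42.7% (42.2 to 43.2). Those of all 5 lists were at a gene end in 63.4% (62.5 to 64.2). The median member lay 30.3 kb from the nearest gene end, against 24.0 kb for the other union regions, and 2954 members (22.8%, 22.1 to 23.6) lay over 100 kb away, against 23.2% (23.0 to 23.4). The member farthest from a gene end was on chromosome 18 (27800523 to 27801630), 2046 kb from Celf4.

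**Figure D2:**
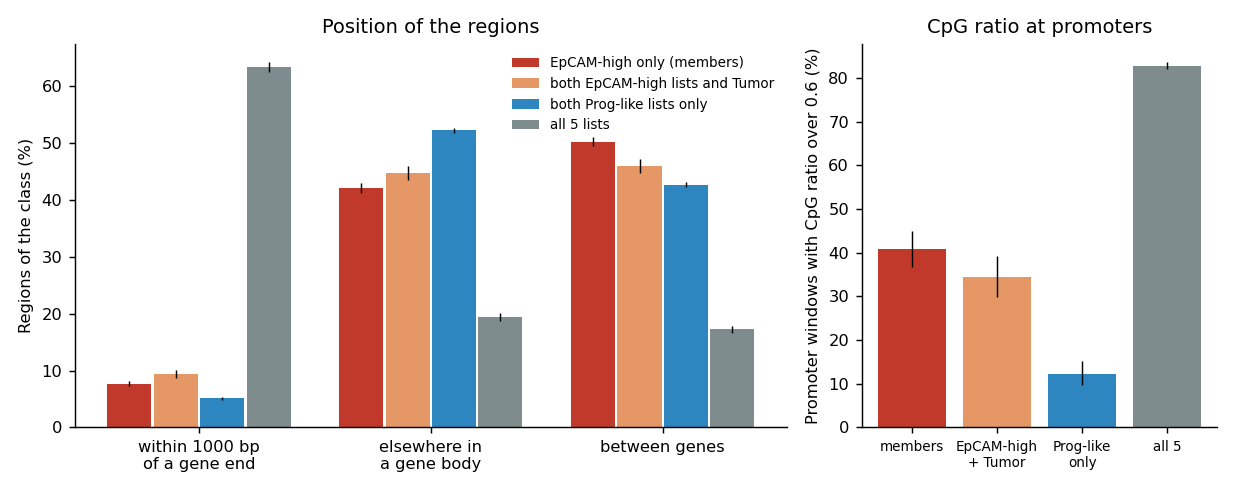
Left, percent of regions of each class by position, for members, regions of both EpCAM-high lists and Tumor, regions of both Prog-like lists alone and regions of all 5 lists. Right, percent of RefSeq promoter windows overlapping each class with a CpG ratio over 0.6. Bars carry 95% intervals; members are at gene ends in 7.69%, regions of all 5 lists in 63.4%, and the CpG-rich share is 40.8% at members against 82.8% at regions of all 5 lists.

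Promoter windows at members were intermediate in CpG content. A member overlapped the promoter window of 526 of 17492 protein-coding genes with a window (3.01%), in 573 windows. Their ratio of observed to expected CpG had a median of 0.512 with quartiles of 0.281 and 0.737, and 234 windows (40.8%, 36.8 to 45.0) were above 0.6. At regions of both EpCAM-high lists and Tumor 34.4% (29.8 to 39.3) were above 0.6, at regions of both Prog-like lists alone 12.2% (9.62 to 15.3) and at regions of all 5 lists 82.8% (82.0 to 83.6). Of all 21263 windows 47.6% (47.0 to 48.3) were above 0.6, and of the 8115 windows with no peak in any list 10.5% (9.84 to 11.2). The median GC content was 59.3% at members and 56.3% over all windows. The sequence played no part in choosing the members.

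Short motifs were counted in the same windows on both strands, and a match is a description of letters, not a binding site. The AP-1 motif TGANTCA was in 11.5% of windows at members (9.02 to 14.4), against 6.99% of all windows (6.65 to 7.34), 3.87% at regions of all 5 lists and 11% (8.48 to 13.9) at regions of both Prog-like lists alone. It was also in 9.98% (7.22 to 13.3) at regions of both EpCAM-high lists and Tumor and in 9.7% (9.06 to 10.4) of windows with no peak, both shares within the interval of the members. The TEAD motif GGAATG was in 15% (12.2 to 18.2) against 13.6% (13.1 to 14.1) of all windows. The ETS motif CCGGAA was in 8.20% (6.09 to 10.8) against 18.7% (18.2 to 19.2), and in 32.6% at regions of all 5 lists. Its share at regions of both EpCAM-high lists and Tumor, 9.23%, lay within the interval of the members. It was in 11.5% at regions of both Prog-like lists alone and in 5.42% of windows with no peak. The printed promoters of Crb3 and Cldn7 each held 1 ETS match, starting 25 and 65 bp before the gene start. PU.1, a myeloid ETS factor, has the motif GAGGAAGT, found in 2.27% of windows at members (1.21 to 3.85) and in 12.1% (9.46 to 15.1) at regions of both Prog-like lists alone. The share of all windows, 3.13%, lay within the interval of the members. The RUNX motif TGTGGT was in 14.0% (11.2 to 17.1) and 25.8% (22.2 to 29.7) of these windows, against 15% of all windows, which again lay within the interval of the members. FOXA (TGTTTAC, 2.62%), ONECUT (ATTGATT, 2.97%) and CEBP (TTGCNNAA, 10.1%) had intervals at members that held the share of all windows (3.01%, 2.56% and 10.2%). SOX (ACAATG) was in 6.63% (4.74 to 8.99) against 11% of all windows. Regions of all 5 lists (6.38%) and of both EpCAM-high lists and Tumor (8.23%) had SOX shares within the interval of the members. Regions of both Prog-like lists alone (9.32%) and windows with no peak (17.5%) had shares above it. The GRHL-like AACCNGGTT was in 1 window at members (0.175%, 0.00442 to 0.968), an interval that held the 0.254% of all windows. CpG-rich and CpG-poor windows differ in the letters they can hold, and the part of base composition in these shares was not tested.

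Members were spread along the chromosomes, with some tight groups. Neighbouring members were a median of 57.3 kb apart, and 18.7% of the gaps were under 10 kb. With members less than 10 kb apart joined, 8668 (67.0%) stood alone and 1398 (10.8%) fell into stretches of 3 or more. Regions of both Prog-like lists alone, of which there are more, had a median gap of 14.4 kb and 38.2% of regions in such stretches. Regions of both EpCAM-high lists and Tumor, of which there are fewer, had 100.9 kb and 6.46%. Regions of all 5 lists, a class of 13529 and thus closest in size, had a median gap of 50.6 kb, with 76.9% alone and 6.08% in such stretches. Along the order of all union regions, 8136 members had a region of another class on each side, while 1860 (14.4%) lay in runs of 3 or more adjacent members. The share of members among union regions was lowest on chromosome 17 (7.38%, 6.70 to 8.11) and highest on chromosome 19 (11.3%, 10.2 to 12.5), and no member was found among 28 regions of chromosome Y.

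The largest stretches, named after their values were seen, included those at Krt19, Cftr and Tmprss2. A stretch of 7 members over 29.3 kb covered Krt19 (chromosome 11, 100139300 to 100168641), the keratin gene by which bile duct cells are recognised, with 8 and 10 peaks in EpCAM-high CK19 and Sox9 and none in the 3 other lists. A stretch of 7 over 33.5 kb lay nearest to Palmd (chromosome 3, 117044248 to 117077777), with 1 Tumor peak. At Cftr 6 members lay within 13.6 kb of each other around the gene start (chromosome 6, 18169693 to 18183339). At Ppfibp2, nearest to Cyb5r2, 6 lay over 14.0 kb (chromosome 7, 107679579 to 107693613), with 1 peak in each Prog-like list. At Tmprss2, a membrane protease gene of glandular epithelia, 6 lay over 22.4 kb (chromosome 16, 97659139 to 97681567). The longest run of adjacent members, uninterrupted by any other region, was 9 over 187.7 kb at Atp10b (chromosome 11, 42999235 to 43186937), a gene of the lipid-flipping P4-ATPases. It was followed by 7 over 88.4 kb at Dock2 and Insyn2b (chromosome 11, 34267280 to 34355688). Runs of 6 were found at 17 places, the most compact at Tmprss2, between genes near Arhgap42 (24.7 kb, chromosome 9) and near Nr2f2 (35.1 kb, chromosome 7).

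Gene by gene, 4877 of 21887 protein-coding genes (22.3%) had a member in the locus, meaning the gene with 10 kb added at both ends. In the body itself 3428 genes (15.7%) had a member, and 1000 genes (4.57%) had one within 1000 bp of a gene end. Most had few: 2172 genes held 1 member in the body, 233 held 5 or more and 34 held 10 or more. The last were long, with a median length of 598.3 kb against 17.2 kb for all genes. Of the 4877 genes 2809 (57.6%) also had a region of both Prog-like lists alone in the locus, which is 28.7% of the 9783 genes that had such a region (44.7% of all protein-coding genes).

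**Figure D3:**
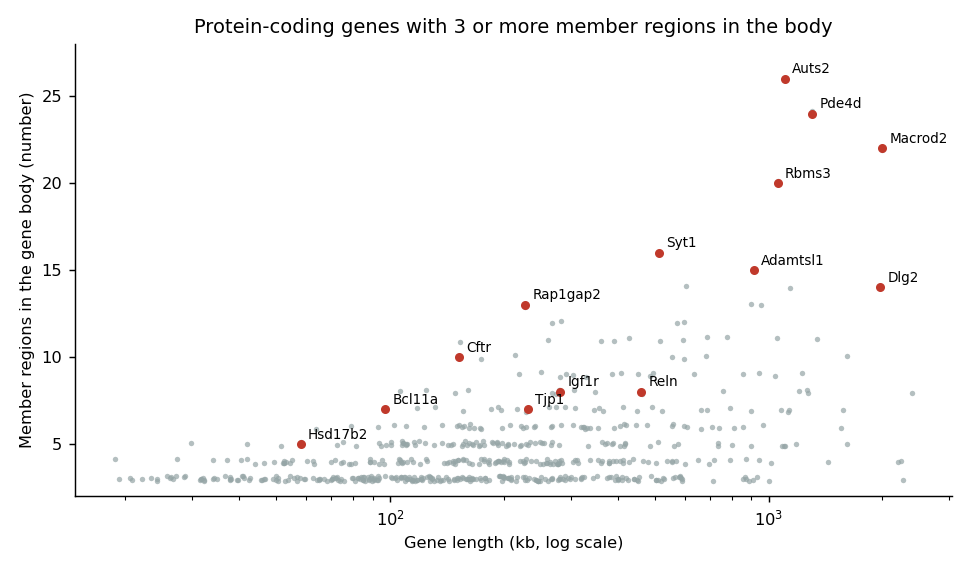
Member regions in the gene body (y axis; points are jittered slightly) against gene length in kb (x axis, log scale) for protein-coding genes with 3 or more. Auts2 has the most with 26; Rap1gap2, Cftr and Bcl11a hold many for their length, with 5.71, 6.58 and 7.22 per 100 kb.

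The genes with most members in the body were long genes, several best known from neurons. Auts2, a chromatin regulator gene of brain development (chromosome 5, 131437333 to 132543220), held 26. Its locus had 38 and 41 peaks in EpCAM-high CK19 and Sox9, against 4 and 1 in the Prog-like lists (CK19 and then Sox9) and 4 in Tumor, the order kept for all genes below. Pde4d, a cyclic AMP phosphodiesterase gene, held 24, with 65 and 59 peaks in EpCAM-high CK19 and Sox9 against 27, 26 and 29 in the other lists. Macrod2 held 22 (76 and 56 peaks against 26, 24 and 31), with 12 in the locus when all lists were cut to 39644 peaks (equal list length) and 34 when the Tumor list was not used. Rbms3, an RNA-binding protein gene, held 20 (30 and 29 against 1, 2 and 5). Pde4d and Macrod2, of 1302 and 1998 kb, thus had 24 or more peaks in every list. Auts2 and Rbms3, of 1106 and 1057 kb, had few outside the EpCAM-high lists. Longer genes have room for more peaks, and these counts are not per length.

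Next came Syt1, a sensor of vesicle release, with 16, Adamtsl1 with 15 (9 at equal list length), and Esrrg, Ptprt and Dlg2 with 14 each. With a −log10 q of 5 or more in the EpCAM-high lists Ptprt held 9 and Dlg2 8, and the Dlg2 locus also had 20 regions of both Prog-like lists alone. Rap1gap2 held 13 (7 at equal length), as did Sox5 and Etl4, whose locus held 14, or 22 without the Tumor list. Esrrg encodes an orphan nuclear receptor and had 28 and 23 peaks against 6, 2 and 5. Sox5 encodes an SRY-box transcription factor and had 30 and 31 against 3, 1 and 17, the most of them outside the EpCAM-high lists in Tumor. Per length, Rap1gap2 stood out among these 12 with 5.71 members per 100 kb, against 0.71 in Dlg2. The Rap1gap2 locus also had 11 regions of both Prog-like lists alone, with 20 and 19 peaks against 15, 14 and 0.

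Short genes give the count a different meaning, since a gene of at most 100 kb has little room. Of 19458 such genes 36 held 5 or more members in the locus. Tmem45a, Tmprss2 and Bcl11a held 7 each, and others held 6, among them Hs3st1, Tesc, Lrrn1, Slc14a1, Lama5, Pax8, Hsd17b2 and Slc16a12. Lama5 encodes a laminin chain of epithelial basement membranes. Its locus had 10 peaks in each EpCAM-high list, against 3, 3 and 5, and the 6 members became 3 at equal length. Pax8, a transcription factor gene of thyroid and kidney epithelium, had 9 and 10 against 1, 1 and 3. Bcl11a, a zinc finger repressor gene best known from blood, had 10 and 13 against 3, 4 and 1, and 4 members at equal length. Hsd17b2 encodes a steroid dehydrogenase (10 members without the Tumor list), and Slc14a1 a urea channel.

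A count made after the values were seen asked which loci with 5 or more members had no Prog-like peak at all. There were 12 such genes among 271, and they included Cftr (11 members), Arhgap44 (8), Plce1, Sorcs3, Lrrn1, Bcl11b, Cldn18, Vtcn1, Mcf2l, Csrnp3 and Gli2. The share of all protein-coding genes whose locus lacks a Prog-like peak was not counted. Whether 12 of 271 is many or few is thus not known. Cldn18 encodes a claudin of stomach and lung epithelium, and Gli2 a transcription factor of Hedgehog signalling. Arhgap44, Cldn18 and Vtcn1 had no Tumor peak either.

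Bile duct genes were examined as lists of cell types and pathways, whose members were chosen with earlier results of these data known, so the counts are descriptions and support nothing by themselves. Of 26 cholangiocyte and progenitor markers, 22 had a member in the locus (84.6%, 65.1 to 95.6), beside 22.3% of all genes. A member lay within 1000 bp of a gene end at 11 of the 26 (42.3%), beside 4.57% of all genes. The loci were short, with a median gene length of 11.4 kb, and held a median of 1 member, against 0 over all genes. The 11 included the keratin genes Krt19, Krt7, Krt8 and Krt23, the claudin genes Cldn4 and Cldn7, Dcdc2a, the epithelial ETS factor gene Ehf, Tff2 and Dmbt1. Spp1, Prom1, Sox4 and Muc1 had no member in the locus. A region of both Prog-like lists alone lay in 9 of the 26 loci (34.6%), beside 44.7% of all genes.

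Dcdc2a, a cilia gene whose human counterpart is mutated in a bile duct disease, held 6 members, with 10 and 11 peaks in EpCAM-high CK19 and Sox9 against 1, 1 and 3 in the other lists. Krt19 held 4, with 4 and 6 peaks against none in the other lists, though their −log10 q was at most 9.0 in CK19 and 18.2 in Sox9 and 1 was left at equal list length. The sorting marker gene Epcam held 1, with 2 peaks in each EpCAM-high list against 3, 3 and 1. Its locus also had 2 regions of both Prog-like lists alone, so similar counts stood partly at different places. Sox9 held 1, with a −log10 q of 2.61 in CK19 and 28.2 in Sox9, and none at equal length. Thy1, the other sorting marker, had no peak in any list.

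**Figure D4:**
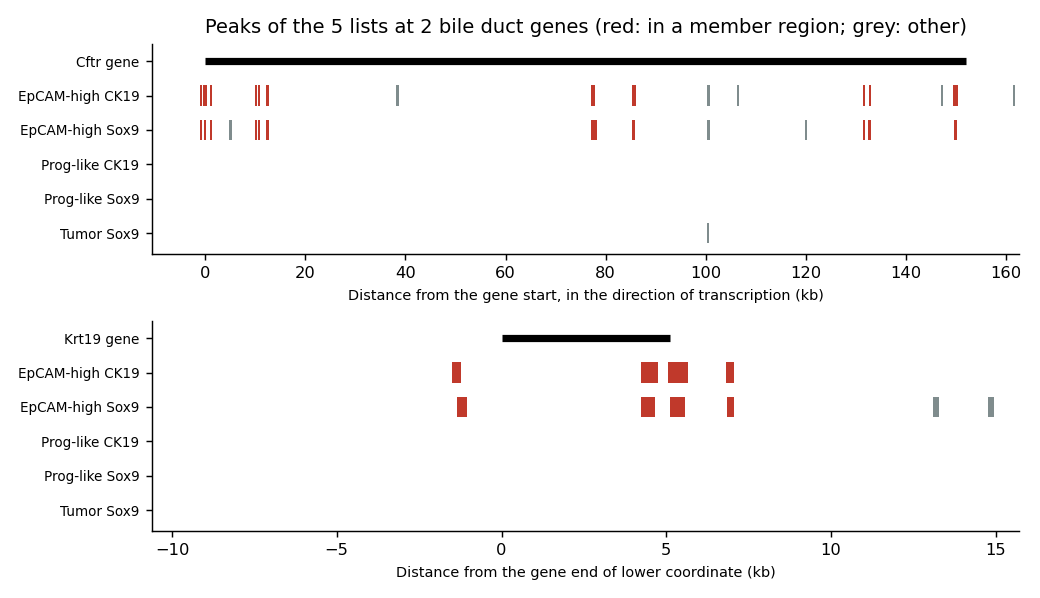
Peaks of the 5 lists (rows) at Cftr and Krt19 with 10 kb on either side, by distance in kb from the gene start (Cftr) or from the gene end of lower coordinate (Krt19). Peaks in member regions are red, other peaks grey, and peaks too narrow to see are drawn wider; the Prog-like rows are empty at both genes.

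Genes of cilia and fluid transport had a member in 10 of 20 loci (50%, 27.2 to 72.8) and at a gene end in 6. Cftr (chromosome 6, 18170687 to 18322770) held 11, with 16 and 15 peaks in EpCAM-high CK19 and Sox9 against 0, 0 and 1, and 7 at equal length. Its strongest peak, 100.2 kb from the gene start, had −log10 q values of 213.2 and 161.8 but is no member, because Tumor had a peak there too. Abcc4, an exporter of bile acids and nucleotides, held 7 beside 8 regions of both Prog-like lists alone, and 4 members had no peak of the other lists within 1000 bp. Ano1, a chloride channel, held 4, and Sctr, the receptor for the duct hormone secretin, held 2. Slc4a2, Gpbar1, Pkd1 and Slc5a1 were among the genes of this list with none.

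Epithelial junction genes had a member in 15 of 24 loci (62.5%, 40.6 to 81.2). Tjp1, which encodes the tight junction scaffold ZO-1, held 7 (4 at equal length), with 16 peaks in each EpCAM-high list against 11, 12 and 8. Dsp, the desmosome linker gene, held 3, and the tight junction genes Cldn8, Ocln and Crb3 held 2 each. Epithelial and foregut transcription factor genes had a member in 16 of 26 loci (61.5%, 40.6 to 79.8). Grhl2, a grainyhead factor of epithelial identity, held 5 (6 and 8 peaks against 4, 2 and 0). Pdx1, known from pancreas and duodenum, held 4 (4 and 6 against 0, 0 and 0; 2 at equal length), and Onecut1, a biliary and hepatic factor, held 3.

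Among signalling pathways, growth factor receptor and ligand genes had a member in 16 of 21 loci (76.2%, 52.8 to 91.8). The insulin-like growth factor receptor gene Igf1r held 8 (3 at equal length) and also had 11 regions of both Prog-like lists alone. Erbb4, an EGF receptor relative, held 7 with 15 peaks in each EpCAM-high list against 4, 0 and 14. Met, the receptor for hepatocyte growth factor, and Egfr held 5 each, with 8 at Met without the Tumor list. Wnt genes had a member in 15 of 25 loci (60.0%, 38.7 to 78.9). The ligand genes Wnt7b (5 members, 2 at equal length) and Wnt5a (3) led, with 5 and 7 peaks against 1, 0 and 1 at Wnt7b and 5 and 4 against none at Wnt5a, which held 1 with 50% coverage. The effector gene Tcf7l2 held 3 beside 9 regions of both Prog-like lists alone.

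Hippo pathway genes had a member in 10 of 18 loci (55.6%, 30.8 to 78.5). None had one within 1000 bp of a gene end, beside 4.57% of all genes. The promoter window of Amotl1 that lay inside a member belongs to a transcript start within the gene body. Wwtr1, which encodes the coactivator TAZ, held 5, and Tead4, Tead1 and Amotl1 held 3 each, with 6 at Tead4 without the Tumor list. Notch genes also had one in 10 of 18. The coactivator genes Maml3 (5) and Maml2 (4) led, beside 23 and 28 regions of both Prog-like lists alone, and the ligand gene Dll4 held 2. At equal length Maml2 held 7 and Dll4 1, and Maml3 held 10 without the Tumor list. TGF-beta pathway genes had one in 8 of 20 (40.0%, 19.1 to 63.9). Bmpr1b, a BMP receptor gene, held 5 members, with −log10 q values of at most 27.2 and 5.19, none of which was left at equal length, and the inhibitory Smad7 held 3 (6 without the Tumor list).

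**Figure D5:**
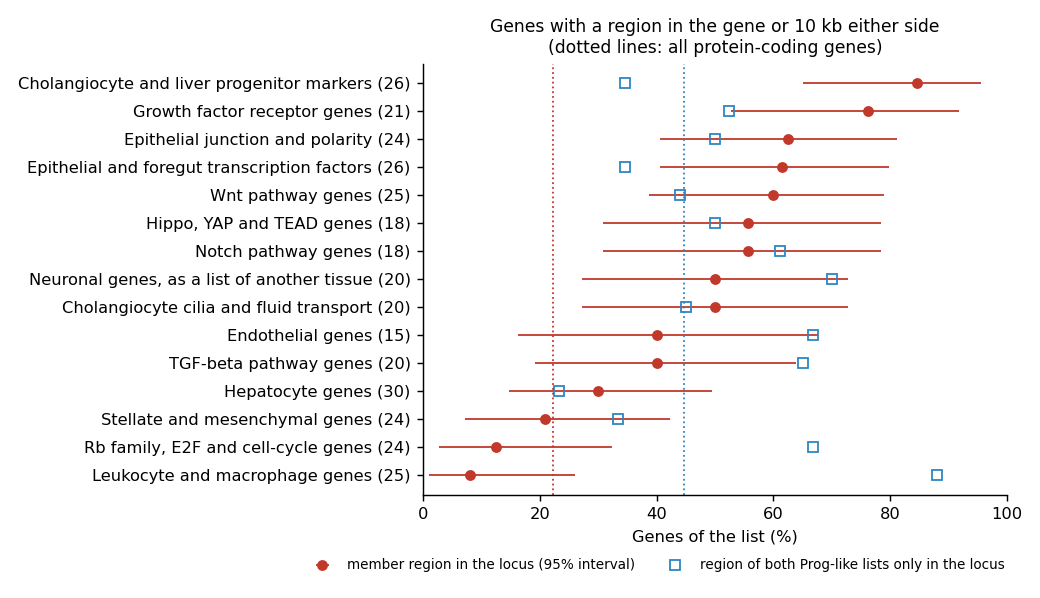
Percent of genes of each list (number of genes in brackets) with a member in the gene or within 10 kb (red, with 95% intervals) and with a region of both Prog-like lists alone (blue squares). Dotted lines mark all protein-coding genes, 22.3% and 44.7%; bile duct markers stand at 84.6% for members and leukocyte genes at 8.0%.

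The hepatocyte, leukocyte, endothelial and stellate lists had intervals that overlapped one another and held the 22.3% of all genes. Their order was not tested. Of 30 hepatocyte genes 9 had a member in the locus (30.0%, 14.7 to 49.4), with 3 at Cebpa, a hepatocyte transcription factor gene, and 2 at Apob, the apolipoprotein B gene. At equal length 4 of the 30 had one, and 15 when the Tumor list was not used. Alb had none and Hnf4a had 1. The counts of Cebpa and Apob each became 1 at equal length, and that of Apob 4 without the Tumor list. Of 25 leukocyte and macrophage genes 2 had a member (8.0%, 0.984 to 26.0), namely Ptprc and Mrc1 with 1 each, while 22 of the 25 (88.0%) had a region of both Prog-like lists alone. Of 15 endothelial genes 6 had a member (40.0%, 16.3 to 67.7), with 2 at Vwf (1 at equal length), and of 24 stellate and mesenchymal genes 5 (20.8%, 7.13 to 42.2). Reln held 8 of the 14 members of that last list, with 15 and 13 peaks against 1, 1 and 1. It held 5 with a −log10 q of 5 or more in the EpCAM-high lists or with 50% coverage, and 3 genes of the list had a member with either −log10 q limit. It is a matrix gene of stellate cells in liver and of neurons.

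Rb family, E2F and cell-cycle genes had a member in 3 of 24 loci (12.5%, 2.66 to 32.4), 1 each at E2f2, Mcm2 and Cdkn1b, and in 7 loci without the Tumor list. That of Mcm2 was not left at equal length or with a −log10 q of 5 or more, and that of E2f2 was not left where peaks had to cover 50% of the region. Rb1, Rbl1 and Rbl2 had none. Neuronal genes, taken as a list of another tissue, had one in 10 of 20 (50%, 27.2 to 72.8), with 16 at Syt1 and 14 at Dlg2. Their median length was 476.0 kb, against 11.4 kb for the cholangiocyte markers, and the part of length in their count was not tested.

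Of the 8 strongest members 5 lay between genes and 3 in gene bodies. Ranked by the weaker of the 2 list positions, the first lay in Macrod2 (chromosome 2, 141271444 to 141272034), with −log10 q values of 240.3 in CK19 and 172.4 in Sox9 and folds of 20.2 and 22.5. The next lay between genes 368.8 kb from Flrt2 (chromosome 12, 96153993 to 96154637), in Opcml (chromosome 9, 28278370 to 28279151) and in Mrc1 (chromosome 2, 14258259 to 14258757). Mrc1 encodes a mannose receptor of macrophages and sinusoidal endothelium. Its locus had 17 and 20 peaks in Prog-like CK19 and Sox9 against 4 and 5 in EpCAM-high CK19 and Sox9, and the nearest Prog-like peaks were 3.16 and 3.13 kb from this member. Another 4 lay near Flrt2, Bach1, Gipc2 and Tcf4, all between genes. Of the 100 highest-ranked members 60 were between genes, 35 in a gene body and 5 at a gene end.

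Distances to peaks of the other lists were measured for members alone, so no other class stands beside them. The nearest Prog-like CK19 peak was a median of 13.0 kb away, the nearest Prog-like Sox9 peak 15.9 kb and the nearest Tumor peak 19.8 kb. Any of the 3 lists had a peak within 1 kb of 1416 members (10.9%), and none within 100 kb of 574 (4.44%).

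Members also lay near the miR-200 microRNA genes, which hold epithelial cells in their state by repressing Zeb1 and Zeb2. They were chosen after their values were seen, together with Mir205, another epithelial microRNA gene. Over all 1005 hairpins in the RefSeq table a member lay within 1000 bp of 18 (1.79%) and within 5000 bp of 69 (6.87%). The mature RNAs (RefSeq, GRCm38.p6), with the seed (bases 2 to 8) in capitals, fall by seed into AAUACUG (miR-200b, miR-200c and miR-429), AACACUG (miR-200a and miR-141) and CCUUCAU (miR-205).
miR-200b-3p: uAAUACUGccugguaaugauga
miR-200c-3p: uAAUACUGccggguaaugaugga
miR-429-3p: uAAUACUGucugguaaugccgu
miR-200a-3p: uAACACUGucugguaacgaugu
miR-141-3p: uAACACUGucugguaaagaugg
miR-205-5p: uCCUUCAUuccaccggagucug

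The Mir200c and Mir141 hairpins on chromosome 6 lay in and 21 bp from the same member (124718007 to 124720094), whose −log10 q was 28.4 in EpCAM-high CK19 and 18 in Sox9. Within 5000 bp of Mir200c there were 2 peaks in each EpCAM-high list, against 2, 1 and 0 in the other lists. On chromosome 4, Mir200b and Mir200a had 2 members within 5000 bp and Mir429 had 1. The stronger of these (156059346 to 156060251) was 3595 bp from Mir200b, with −log10 q values of 60.1 and 60.7. Within 5000 bp the other lists had 0, 0 and 1 peaks at Mir200b, and 1, 1 and 1 at each of Mir200a and Mir429. Mir205 on chromosome 1 had 2 members within 5000 bp, the nearer with values of 101.4 and 49.4, and no peak of the other lists.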

How the data were processed

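Bulk ATAC-seq was made from sorted YFP+ liver cells, per the labels' protocols. Of tools and build, mm10, MACS2, deepTools, HOMER and Bowtie 1.1.2 are named, without roles, per the submitters' processing notes; no source used here gives pooling, read shifting or duplicate handling. The 5 deposited lists are in narrowPeak layout, with the authors' fold (a ratio), −log10 p and −log10 q per peak and a summit offset.

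Regions, positions and counts were computed in Python 3.11.15 (pandas 2.3.3, scipy 1.17.1) and tested on simulated peak lists. Genes, promoter windows and miRNAs were RefSeq's, of GRCm38.p6. The 15 gene lists hold 336 entries (326 genes); all matched, 1 by an older symbol. Named genes were the 12 with most members in the body, the 12 of at most 100 kb with most in the locus, up to 3 per list, Epcam, Thy1, Krt19 and Sox9; the 5 longest runs and the 8 best-ranked members were also named, and others are given as examples of a list. A few genes that the rule or the lists hold, and 1 motif, are not reported here. Members, lists and rules were chosen with earlier results of these data known. Alternatives were equal list length (39644 peaks, by −log10 p), −log10 q of 5 or more, 50% coverage, 1000 bp isolation, autosomes, no Tumor list, and other windows, flanks and joining distances. No genome sequence was used, so motifs were counted at promoters alone.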

Additional observations from a re-analysis of the deposited data

How the results depend on the processing

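Without the Tumor list the set grew to 19453 regions, with 8.27% at gene ends, 43.0% in gene bodies, a median gap of 34.2 kb, 23.5% in runs and 18% in stretches of 3 or more. The gene-end share was 8.91% at equal list length, 8.35% with −log10 q of 5 or more in all lists, 7.23% with it in the EpCAM-high lists alone, 8.81% with 50% coverage, 7.16% with 1000 bp isolation and 12.1% with a 2500 bp window, which left 39.5% in gene bodies. The run share was 16.1% and 12.5% with these −log10 q limits, 12.3% with 50% coverage and 15.2% with isolation. The stretch share was 7.59% at equal length, 9.65% and 8.56% with the −log10 q limits, 9.56% with isolation, and 3.63% or 23.4% when members under 5 or 20 kb apart were joined. With 50 kb flanks 9263 genes had a member. The cause of these shifts was not tested, apart from those that the window, flank or joining distance sets by construction. At equal length 9550 regions were members. The share of genes with a member was above that of all genes in 12 of 15 lists, 11 at equal length and 12 under the other alternatives. The 12 include the neuronal list, and the hepatocyte, endothelial and TGF-beta lists, whose intervals held the 22.3% of all genes. Median gene length was 64.6 kb in the Hippo list and 69.8 kb in the TGF-beta list, against 17.2 kb for all genes. The part of length in these shares was not tested. Of 67 named genes, 25 changed their count of members by more than 1.5 times at equal length, and 12 or fewer under each other alternative. Depth is unknown, so a peak missing from a list may be a matter of sequencing. No paired analysis was possible because each condition has 1 peak list and the lists carry no replicate numbers.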

Other observations

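Other microRNA genes with a member within 1000 bp included Mir29a and Mir29b-1, which share a locus on chromosome 6, Mir34b and Mir34c on chromosome 9, and Mir129-1 on chromosome 6. Mir29a and Mir29b-1 had 2 members within 5000 bp each and the others 1 each. Other list genes with a member overlapping a promoter window were Dcdc2a, Pdx1, Bmpr1b, the claudin gene Cldn4, the trafficking gene Rab25, the gut transcription factor gene Cdx2, the Wnt ligand gene Wnt4 and the lymphatic receptor gene Flt4.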
